A study of Homo sapiens with 6 samples.

Results

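A set of 10 genes in this series encodes alpha subunits of heterotrimeric G proteins. They were taken by name: GNAI1, GNAI2, GNAI3, GNAO1 and GNAZ of the Gi/o/z class, GNAS of the Gs class, GNAQ and GNA11 of the Gq/11 class, and GNA12 and GNA13 of the G12/13 class. They are 10 of 35580 genes with a transcript in the deposited tables, and all 10 were among the 15204 genes with enough counts to be tested. The set was chosen by the lower level of GNAI2 after the knockdown, so the values of GNAI2 in this contrast are given as a description and carry no test. The other 9 were tested.

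Messenger RNA was sequenced from Rh30, an established alveolar rhabdomyosarcoma cell line that is positive for the PAX3-FOXO1 fusion. Cells with a knockdown of DDX5, a DEAD-box RNA helicase, are called siDDX5 and were compared with control cells of the same line. Each of the 2 groups held 3 libraries, described as biological replicates, and both groups carry the fusion. A single line is a narrow model of the tumour, and the siRNA sequence, its dose, the time after transfection and the nature of the control are not given in the sources used here. Nothing further says how separate the cultures were. The p-values set the group difference against the spread between these libraries and may not extend beyond these cultures.

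A heterotrimeric G protein couples a receptor in the cell membrane to enzymes inside the cell. The alpha subunit binds GDP at rest together with a beta-gamma pair. The activated receptor makes it exchange GDP for GTP, after which alpha and beta-gamma act on their own effectors until the alpha subunit hydrolyses its GTP. Subunits of the Gi class inhibit adenylyl cyclase, Gs stimulates it, Gq and G11 activate phospholipase C beta, and G12 and G13 activate exchange factors for the small GTPase RhoA.

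The last residues of the alpha subunit contact the receptor. The last 10 codons before the stop codon are shown for the main protein-coding transcript of each gene, 5′ to 3′, read from the GENCODE release 29 transcripts of GRCh38. Capitals mark the fourth codon from the end, which in GNAI1, GNAI2, GNAI3 and GNAO1 is a cysteine codon, the residue that pertussis toxin modifies.
GNAI1: aaaaataatctaaaagatTGTggtctcttt
GNAI2: aagaacaacctgaaggacTGCggcctcttc
GNAI3: aaaaacaacttaaaggaaTGTggactttat
GNAO1: gccaaaaacctgcggggcTGTggactctac
GNAZ: cagaacaatctcaagtacATTggcctttgc
GNAS: cgcatgcaccttcgtcagTACgagctgctc
GNAQ: cagttgaacctgaaggagTACaatctggtc
GNA11: cagctcaacctcaaggagTACaacctggtc
GNA12: caggagaacctgaaggacATCatgctgcag
GNA13: catgacaacctcaagcagCTTatgctacag

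The GNAI2 stretch lies at chr3:50257658-50257687 on the plus strand of GRCh38, in exon 8 of 9 of its main transcript. It matches those of GNAI1, GNAI3 and GNAZ at 21 of 30 bases each and those of GNAO1 and GNA11 at 20, GNAQ at 19, GNA12 at 18, GNA13 at 14 and GNAS at 13 of 30, so the match in bases did not follow the classes. GNAQ and GNA11 match at 26 of 30 bases, the closest pair of the 10. Although the proteins are alike, the members can be told apart from each other by sequence. At most 0.807% of the 31-base words of any member (GNA11) also occurred in another member, and for GNAI2 it was 0.531%. Counted against all other genes, the shared part was larger, up to 9.0% for GNAI3, and 2.37% for GNAI2. These values do not cover transcripts of the same gene.

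The libraries held 21265569 to 26156858 estimated counts in the control group and 18202402 to 19971888 in the siDDX5 group, so every siDDX5 library was shallower. The targeted gene was lower in siDDX5 cells: DDX5 had 1356, 1438 and 1141 CPM (normalised read counts scaled to library size) in control replicates 1 to 3 and 551.3, 506 and 397.1 CPM in siDDX5 replicates 1 to 3. Its log2 fold change was -1.44 (SE 0.15), with an adjusted p of 0.0115 (quasi-likelihood test in edgeR, adjusted by the Benjamini-Hochberg method over all genes). A gene is said to be called where this adjusted p was under 0.05. For DDX5 it ran from 1.34e-16 to 0.0936 over 15 alternative settings. Myogenic markers, the regulators MYOD1 and MYOG among them, were present in every library, with a summed level of 1994 to 2572 TPM (the abundance scaled for transcript length and library size) in control and 2055 to 2171 TPM in siDDX5 libraries, and all 12 of 12 had enough counts to be tested. In such bulk samples, fewer cells of a type and less RNA per cell cannot be told apart.

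All 4 classes of alpha subunit were expressed in Rh30 cells, and GNAS dominated. On the TPM scale, which is per length, GNAS had 451 ± 32.9 TPM (SD, n = 3) in control cells, 56.8% of the summed level of the 10 genes. GNA13 followed with 74.6 ± 6.64, GNAI2 with 71.8 ± 12.6 and GNA12 with 65.3 ± 1.09 TPM (SD, n = 3 each), and neighbours among these 3 overlapped between libraries. GNA11 stood at 45.8 ± 5.07 and GNAQ at 36.2 ± 1.03 TPM, with no overlap between them or with the genes next to them in the order. GNAI3 (16.9 ± 0.586), GNAZ (16.2 ± 3.83), GNAI1 (10.4 ± 3.29) and GNAO1 (5.60 ± 2.52 TPM) closed the order, each overlapping the next.

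**Figure D1:**
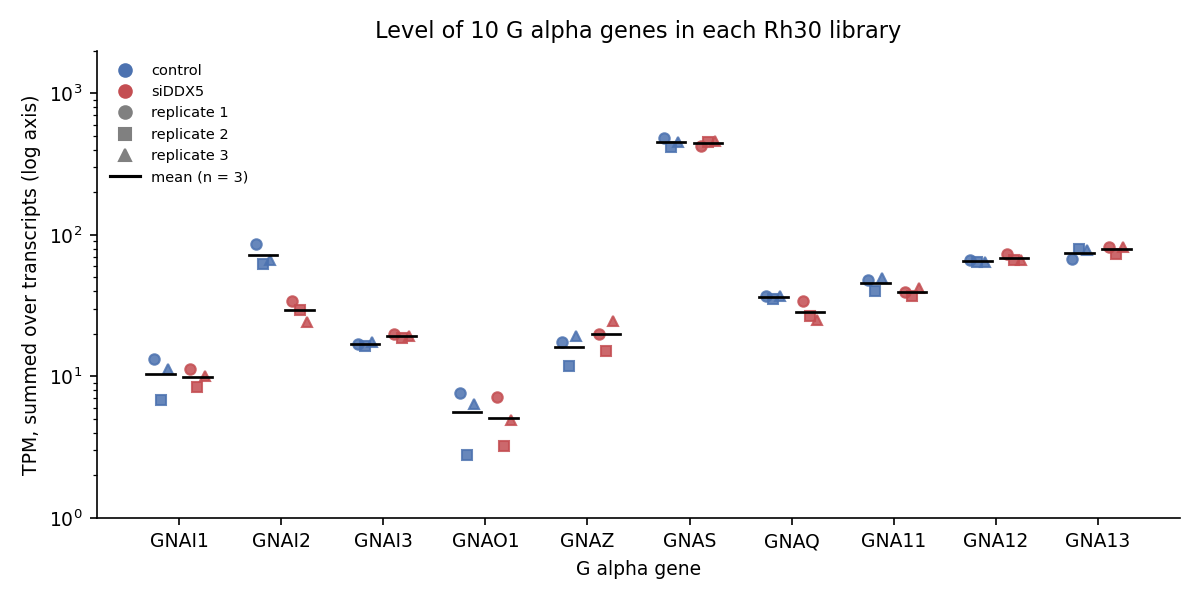
Level of the 10 G alpha genes in each library, in TPM on a log axis, with control in blue, siDDX5 in red, a symbol for each replicate and a bar for the mean of 3 libraries. GNAI2 drops from between 62.4 and 86.2 TPM to between 24.1 and 34.1 TPM, while GNAS stays above 400 TPM in all 6 libraries.

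In siDDX5 cells the order changed most at GNAI2. It moved from the third to the fifth place, below GNA12 and GNA11, and its 29.2 ± 5.04 TPM (SD, n = 3) overlapped the 28.6 ± 4.76 TPM of GNAQ. GNAS remained first at 444 ± 19.5 TPM, followed by GNA13 at 79.2 ± 5.20 and GNA12 at 68.7 ± 3.40 TPM (SD, n = 3 each). GNAZ (19.9 ± 4.79 TPM) and GNAI3 (19.2 ± 0.666 TPM) exchanged places, with overlapping libraries in both groups. GNAI1 and GNAO1 remained the lowest, at 9.87 ± 1.44 and 5.08 ± 1.96 TPM.

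Among the Gi/o/z subunits, GNAI2, an inhibitor of adenylyl cyclase that is found in most tissues, had the highest TPM in control cells. On counts GNAI3 was higher. GNAI2 (ENSG00000114353.16, chromosome 3, 50226292 to 50259355, plus strand) had 135.1, 94.1 and 98.9 CPM in control replicates 1 to 3 and 49.7, 49.0 and 35.8 CPM in siDDX5 replicates 1 to 3. Every siDDX5 library lay below every control library. The means of 109 ± 22.5 and 44.8 ± 7.85 CPM (SD, n = 3 each) differed 2.44-fold, a log2 fold change of -1.29 (95% interval -1.68 to -0.90). Because GNAI2 was chosen by this difference, its interval is a description and no test. The estimate ranged from -1.38 to -1.10 over the 15 alternatives. The summed level of 7 genes used as leukocyte markers was also lower, with 19.5 to 22.5 TPM in control and 15.1 to 16.7 TPM in siDDX5 libraries. Most of that sum was CD68, and the T cell marker CD3E had at most 0.0878 TPM in any library. The 4 markers with enough counts were mixed: the log2 fold change was -0.32 for CD68 and -0.69 for PTPRC, but 0.36 for ITGAM and 0.89 for CD14, whose groups did not overlap. None of the 4 was called. The cultures are described as a single established line, and the part of these markers in the GNAI2 difference was not tested.

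GNAI3, another Gi subunit that inhibits adenylyl cyclase, was a little higher in every siDDX5 library. GNAI3 (ENSG00000065135.10, chromosome 1, 109548611 to 109618321, plus strand) had 268.1, 259.9 and 271.2 CPM in control and 303.6, 323.9 and 310.2 CPM in siDDX5 replicates 1 to 3. The groups did not overlap, and the siDDX5 libraries were the higher ones. The log2 fold change was 0.23 (SE 0.09, 95% interval 0.02 to 0.44), and it did not pass the test after adjustment (edgeR adjusted p = 0.399, or 0.189 with the replicate number as a block). On counts GNAI3 exceeded GNAI2 in all 6 libraries, whereas on TPM, which divides by length, it was lower. Its only listed transcript, ENST00000369851.6, is 27173 bases long, and the place of GNAI3 in the order of levels rests on that length. In the annotation GNAI3 overlaps GNAT2 on the other strand, with at most 0.149 CPM, and AMPD2 on its own strand, with 32.15 to 40.87 CPM, so its level is uncertain to that extent.

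GNAI1, the third inhibitory Gi subunit, was low, and its groups overlapped. GNAI1 (ENSG00000127955.16, chromosome 7, 79768028 to 80226181, plus strand) had 15.02, 9.89 and 13.5 CPM in control and 13.3, 10.2 and 11.5 CPM in siDDX5 replicates 1 to 3. The estimate was -0.14 on the log2 scale (SE 0.19, 95% interval -0.55 to 0.28, edgeR adjusted p = 0.83). Replicate 2 was the lowest library of both groups, as it also was for GNAO1 and GNAZ.

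GNAO1, the Go subunit that is typical of neurons, had the lowest mean TPM of the 10 genes in both groups. GNAO1 (ENSG00000087258.14, chromosome 16, 56191347 to 56357457, plus strand) had 18.6, 7.94 and 11.01 CPM in control and 13.7, 10.2 and 11.3 CPM in siDDX5 replicates 1 to 3. Control replicate 1 was the highest and control replicate 2 the lowest, with all siDDX5 libraries between them. The log2 fold change of -0.09 had the widest interval of the 10 genes, -0.72 to 0.53 (SE 0.28, edgeR adjusted p = 0.932), and it turned to 0.31 without control replicate 1.

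GNAZ encodes Gz, which also inhibits adenylyl cyclase but lacks the pertussis toxin cysteine, as its codon ATT above shows. GNAZ (ENSG00000128266.8, chromosome 22, 23070361 to 23125037, plus strand) had 33.3, 19.6 and 29.3 CPM in control and 32.1, 26.6 and 36.5 CPM in siDDX5 replicates 1 to 3. The groups overlapped. It differed by 0.21 on the log2 scale (SE 0.20, 95% interval -0.24 to 0.65, edgeR adjusted p = 0.74).

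The summed level of the 5 Gi/o/z genes was 141, 100.3 and 121 TPM in control and 92.3, 74.6 and 82.9 TPM in siDDX5 replicates 1 to 3. Every siDDX5 library lay below every control library. The mean went from 121 ± 20.6 to 83.3 ± 8.87 TPM (SD, n = 3 each), a difference of -37.7 TPM. GNAI2 alone differed by -42.6 TPM, and the other 4 genes together by 4.94 TPM, from 49.1 ± 9.80 to 54.1 ± 7.69 TPM, with overlapping libraries. The share of GNAI2 in this sum went from 59.5% ± 3.77 to 35.1% ± 5.43 (SD, n = 3 each). The mean shares of the other 4 genes were all larger in siDDX5 cells. GNAI3 went from 14.2% to 23.2%, GNAZ from 13.4% to 23.9%, GNAI1 from 8.49% to 11.8% and GNAO1 from 4.48% to 5.98%. These shares depend on GNAI2 through the sum, so they do not show a higher level of these genes. The sums and shares also rest on the 27173-base length of the only listed GNAI3 transcript. On counts, GNAI3 exceeded GNAI2 in every library. The mean TPM of GNAI1 and GNAO1 was lower in siDDX5 cells, and none of the 4 passed the test of its own level.

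**Figure D2:**
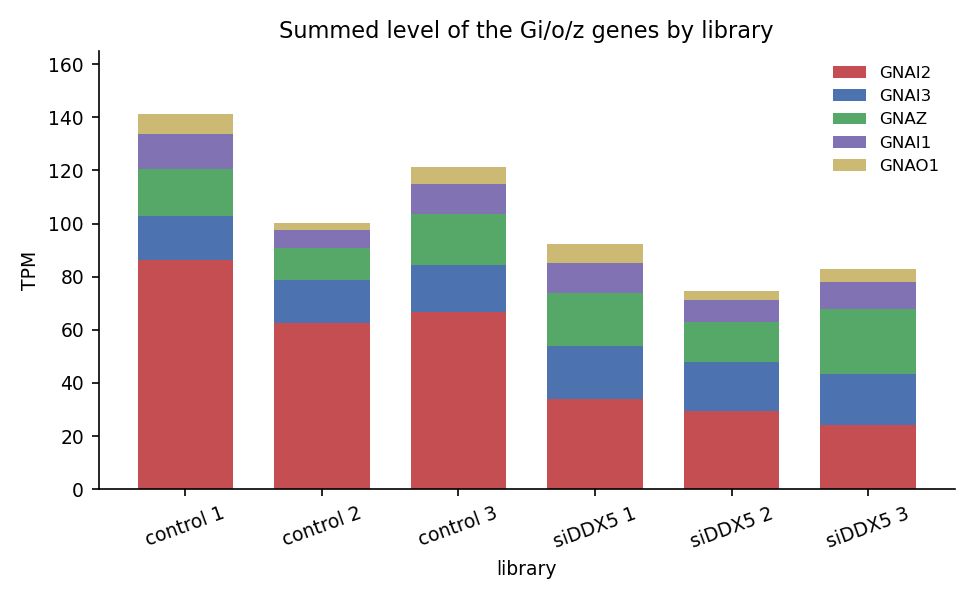
Summed TPM of the 5 Gi/o/z genes in each of the 6 libraries, stacked by gene. The height of the GNAI3 segment rests on the length of its only listed transcript. The GNAI2 segment is 62.4 to 86.2 TPM high in control and 24.1 to 34.1 TPM in siDDX5 libraries, while the other 4 segments together span 37.8 to 55.2 TPM in control and 45.2 to 58.8 TPM in siDDX5 libraries.

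GNAS, which encodes the stimulatory subunit Gs and other products of an imprinted locus, did not differ beyond its error. GNAS (ENSG00000087460.24, chromosome 20, 58839718 to 58911192, plus strand) had 493.8, 412.1 and 436.7 CPM in control and 411.9, 499.7 and 457.2 CPM in siDDX5 replicates 1 to 3. The highest and the lowest library were both siDDX5 libraries. The estimate of 0.03 on the log2 scale (SE 0.12, 95% interval -0.24 to 0.29, edgeR adjusted p = 0.956) was close to 0, and its sign depended on the setting, with -0.02 on log2(TPM + 1). Against the smaller Gi/o/z sum, the share of GNAS among the 10 genes was 56.8% ± 0.449 in control and 59.8% ± 2.67 in siDDX5 cells (SD, n = 3 each).

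Of the Gq/11 pair, which activate phospholipase C beta, GNAQ was lower. GNAQ (ENSG00000156052.10, chromosome 9, 77716087 to 78031458, minus strand) had 116.1, 110.4 and 113.7 CPM in control and 104.2, 94.8 and 82.4 CPM in siDDX5 replicates 1 to 3. No siDDX5 library reached the lowest control library. The log2 fold change was -0.27 (SE 0.11, 95% interval -0.53 to -0.02), which did not pass after adjustment (edgeR adjusted p = 0.406, or 0.137 with the replicate block). This 0.137 was the lowest adjusted p of any of the 9 genes in any setting. The processed pseudogene GNAQP1, which shares 464 of the 6598 31-base words of GNAQ, was listed at 0 in all libraries.

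GNA11, the other Gq/11 gene, overlapped between groups. GNA11 (ENSG00000088256.8, chromosome 19, 3094410 to 3124004, plus strand) had 93.2, 69.6 and 75.2 CPM in control and 67.4, 79.8 and 64.4 CPM in siDDX5 replicates 1 to 3. Its log2 fold change was -0.17 (SE 0.14, 95% interval -0.48 to 0.14, edgeR adjusted p = 0.685). The pair summed to 82.1 ± 6.10 TPM in control and 68.1 ± 5.05 TPM in siDDX5 cells (SD, n = 3 each), and every siDDX5 library (63.6 to 73.6 TPM) was below every control library (75.1 to 86.2 TPM).

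The G12/13 genes, which signal to RhoA, leaned the other way by small amounts. GNA12 (ENSG00000146535.13, chromosome 7, 2728112 to 2844324, minus strand) had 176.4, 169.0 and 170.8 CPM in control and 183.6, 199.9 and 186.7 CPM in siDDX5 replicates 1 to 3. GNA13 (ENSG00000120063.9, chromosome 17, 65010715 to 65056839, minus strand) had 192.0, 225.3 and 221.2 CPM in control and 225.4, 235.9 and 244.2 CPM in siDDX5 replicates 1 to 3. In both, every siDDX5 library was above every control library, for GNA13 by less than 1 CPM, and on the TPM scale the GNA13 groups overlapped. The log2 fold change was 0.14 for GNA12 (SE 0.09, 95% interval -0.07 to 0.36, edgeR adjusted p = 0.601) and 0.14 for GNA13 (SE 0.10, 95% interval -0.09 to 0.38, edgeR adjusted p = 0.639).

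Across the 9 genes other than GNAI2, then, no subunit passed the test: 0 of 9 were called at an adjusted p under 0.05, where 0.171% of all 15204 genes were called (26 genes, 8 higher and 18 lower). With the replicate block 0 of 9 were called, against 2.48% of all genes, and DESeq2 and both limma fits also called 0. At an unadjusted p under 0.05, GNAI3 and GNAQ passed in edgeR, 2 of 9 beside 11.3% of all genes. With the block it was also 2 of 9, beside 20.4% of all genes, while DESeq2 had 2 and limma on log2(TPM + 1) had 1. The groups did not overlap in 4 of 9 (GNAI3, GNA12 and GNA13 higher, GNAQ lower), beside 18.0% of all genes (8.85% higher and 9.2% lower), and no test was made of that share. The median log2 fold change of the 9 was 0.03, with a range from -0.27 to 0.23, and the median of all genes was near 0.

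The 95% intervals give the range of differences that the data allow for each gene. The lowest 95% bound among the 9 was the -0.72 of GNAO1, and the highest was the 0.65 of GNAZ. As ratios to control, the intervals ran from 0.607 to 1.45 for GNAO1 and from 0.849 to 1.57 for GNAZ, the least precise genes. For the abundant genes they were narrower: 0.849 to 1.22 for GNAS, 1.01 to 1.36 for GNAI3 and 0.695 to 0.985 for GNAQ.

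**Figure D3:**
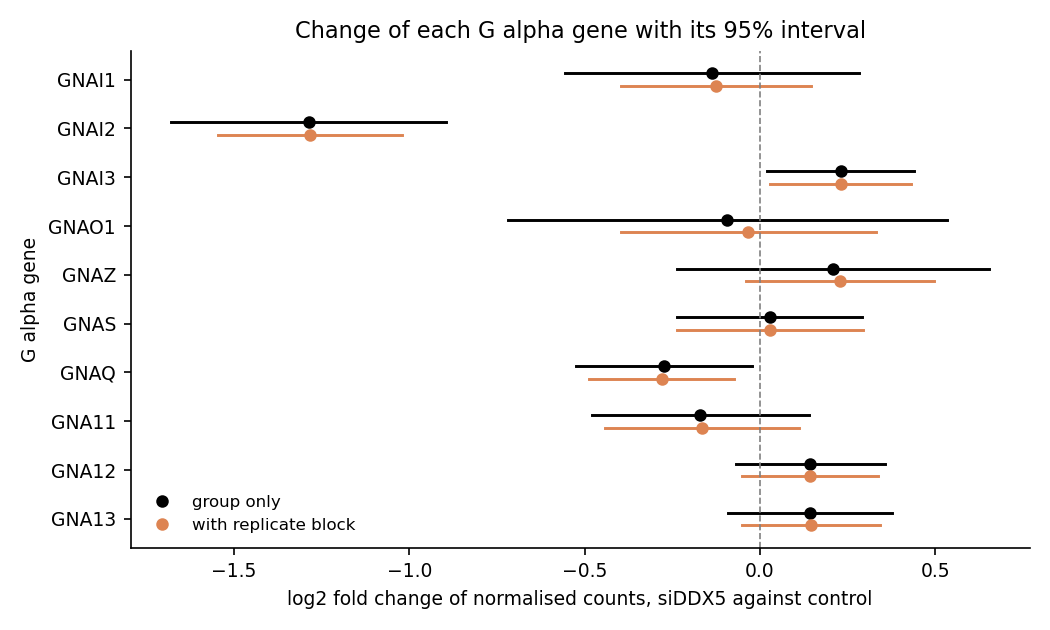
Log2 fold change of each of the 10 genes, siDDX5 against control, with its 95% interval, from the fit with the group alone (black) and from the fit that adds the replicate block (orange). GNAI2 stands at -1.29, shown as a description, and the other 9 estimates lie between -0.27 and 0.23.

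The remaining 6 alpha genes contributed little. GNAL, the olfactory relative of GNAS, had 1.89 TPM in control and 2.73 TPM in siDDX5 cells as means. It was the only one of the 6 with enough counts to be tested, and it was not called (log2 fold change 0.26, edgeR adjusted p = 0.621), although its groups did not overlap. GNA15, a Gq-class gene of blood cells, had 0.459 and 0.341 TPM. Transducin alpha GNAT1, the photoreceptor subunit, was listed at 0 in all libraries, and the 6 genes together had 2.36 to 2.60 TPM in control and 2.74 to 4.12 TPM in siDDX5 libraries.

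The difference in GNAI2 lay mainly in its most abundant transcripts. The main protein-coding transcript, ENST00000313601.11, had 66.9, 47.8 and 48.3 TPM in control and 25.8, 22.2 and 17.0 TPM in siDDX5 replicates 1 to 3. It made up 75.5% ± 2.87 of the GNAI2 level in control and 73.9% ± 2.85 in siDDX5 cells (SD, n = 3 each). ENST00000492383.1, a retained-intron transcript, had 7.87, 8.09 and 7.07 TPM in control and 2.90, 2.77 and 1.87 TPM in siDDX5 replicates 1 to 3. For both, no siDDX5 library reached a control library, and 5 of the 6 GNAI2 transcripts with enough counts had a negative log2 fold change. The retained-intron transcript ENST00000490122.5, chosen after its values were seen, was the exception, with a log2 fold change of 0.53 at 0.530 TPM in control and 0.717 TPM in siDDX5 cells and overlapping groups.

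**Figure D4:**
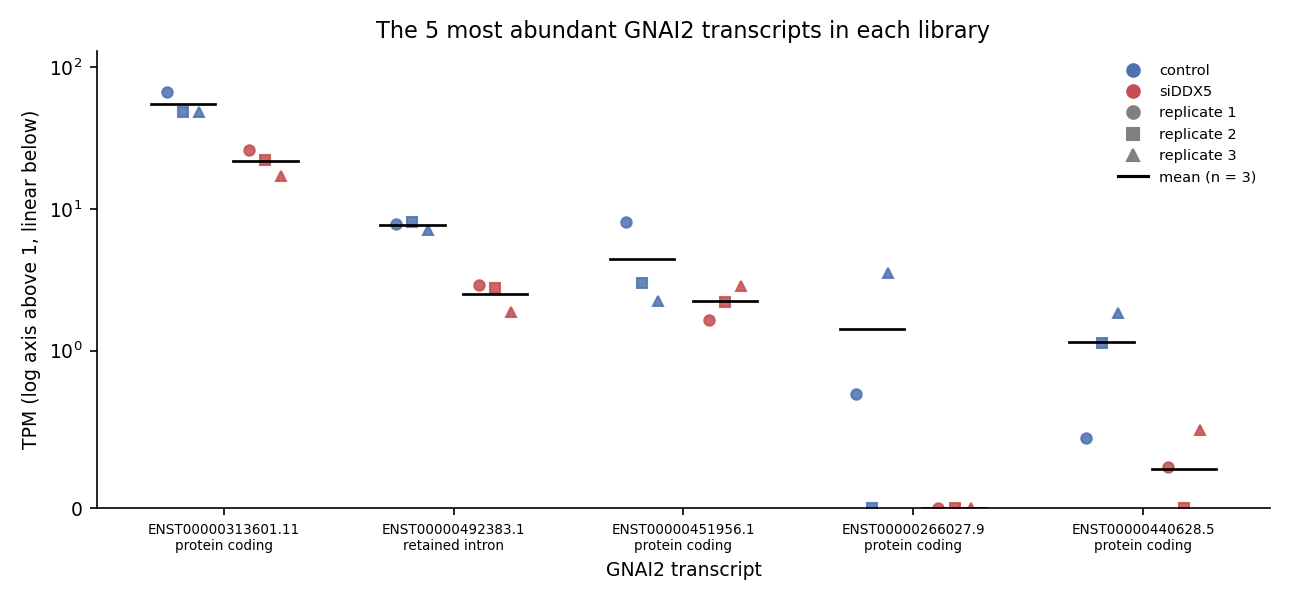
TPM of the 5 most abundant GNAI2 transcripts in each library, on an axis that is logarithmic above 1 and linear below, with control in blue and siDDX5 in red. The main protein-coding and the retained-intron transcript separate the groups, and the other 3 are lower or scattered around a few TPM.

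Earlier work on these data had picked the 7-base word GACGCCA from the 3′ UTRs of genes with lower levels, GNAI2 among them, so it is no independent mark. The site in GNAI2 is shown with 7 bases on either side and the word in capitals, because none of the other 9 members has the word in the window searched.
GNAI2 site: agcgtgaGACGCCAccattcc

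That site lies at chr3:50258820-50258840 on the plus strand of GRCh38, in exon 9 of 9, in the 3′ UTR, 484 bases after the stop codon. On the sense strand, the word occurred in the annotated 3′ UTR of 0 of the other 9 members and of 1.805% of 13683 genes examined (247 genes). Of the 12 GNAI2 transcripts, 7 hold this site. The word also occurs upstream of the stop codon, at position 50253027, so that 9 of the 12 hold it somewhere. The retained-intron transcript ENST00000492383.1, which was also lower, holds it nowhere. ENST00000490122.5, the tested transcript with a positive log2 fold change (0.53, overlapping groups), holds it at both positions. These matches describe letters in a window and show no binding. The annotated version of the main transcript differs from the version in the tables.

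For the other 9 genes, 43 transcripts had enough counts to be tested. None was called in edgeR (0.0% of 61666 transcripts were) and 0 in DESeq2, and 4 had an unadjusted p under 0.05, beside 7.08% of all transcripts. The libraries did not overlap in 9 transcripts that were lower and 2 that were higher in siDDX5 cells, beside 8.99% and 5.32% of all transcripts. A single transcript carried nearly all of GNAQ (97.4% by ENST00000286548.8 in control) and the whole of GNAI3. GNAS had 58 listed transcripts, 37 of them above 0 in at least 1 library. Its largest, the protein-coding ENST00000371085.7, held 17.9% of the level in control and 18.4% in siDDX5 cells. The protein-coding ENST00000371095.7 held 14.9% and 14.5%, and the processed transcripts ENST00000477931.5 and ENST00000480975.5 held 14.5% and 13.8% in control and 16.8% and 16.3% in siDDX5 cells, with overlapping groups in all 4. In control cells GNA12 came mostly from ENST00000275364.8 (58.9%) and ENST00000491117.5 (20.7%), GNAZ from ENST00000615612.2 (69.5%) and ENST00000479571.1 (30.3%), and GNA13 from ENST00000439174.7 (97.3%). GNA11 was divided among ENST00000078429.9 (42.4%), ENST00000588401.1 (23.9%), ENST00000587636.1 (21.3%) and ENST00000586180.1 (9.99%, and 16.3% in siDDX5 cells). Among these, ENST00000587636.1 separated the groups, with 9.66 ± 0.755 TPM in control and 6.29 ± 1.71 TPM in siDDX5 cells (SD, n = 3 each), and was not called (edgeR adjusted p = 0.737). The main GNAO1 transcript, ENST00000262494.12, held 37.6% of that gene, ENST00000639787.1 held 16.5% and ENST00000639251.1 held 11.9%.

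Most of the low GNAI1 level came from transcripts outside the protein-coding class. Protein-coding transcripts summed to 2.58, 1.08 and 1.89 TPM in control and 1.41, 0.353 and 0.877 TPM in siDDX5 replicates 1 to 3, or 17.7% of the GNAI1 level in control and 8.91% in siDDX5 cells. Those sums overlapped between groups. The largest transcript in both groups, the processed ENST00000648449.1, had 4.45, 0.972 and 4.43 TPM in control and 4.48, 4.07 and 2.28 TPM in siDDX5 replicates 1 to 3. It held 29.1% of the GNAI1 level in control and 37.1% in siDDX5 cells, and its groups overlapped (log2 fold change 0.21, edgeR adjusted p = 0.965). ENST00000649485.1, a processed transcript, had 2.75, 3.05 and 2.22 TPM in control and 1.15, 0.525 and 0.515 TPM in siDDX5 replicates 1 to 3, with no overlap (log2 fold change -1.79, SE 0.36, edgeR adjusted p = 0.359). ENST00000648097.1, another processed transcript that covers nearly the same region, had 0.757, 0 and 0.965 TPM in control and 2.13, 2.16 and 3.62 TPM in siDDX5 replicates 1 to 3, also with no overlap (log2 fold change 2.27, SE 1.00, edgeR adjusted p = 0.726). These levels rest on at most 92.2 estimated counts in a library, and how reads were divided between the overlapping transcripts cannot be checked from the tables.

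Transcript usage asks whether the shares of a gene's transcripts differ, whatever its level. It could be tested in 6 of the 9 genes, and 0 of 6 were called (edgeR diffSpliceDGE with Simes adjustment), beside 1.6% of 10688 genes. With the block it was 0 of 6, beside 1.2%. GNAS came closest, with an adjusted p of 0.063, or 0.0561 with the replicate block. It was called without siDDX5 replicate 3 (adjusted p = 0.00067), and its adjusted p ran up to 0.755 over the alternatives. The GNAS transcript with the smallest usage p, chosen after its values were seen, was ENST00000481039.5, a processed transcript with 10.5, 9.02 and 17.5 TPM in control and 0, 0.744 and 4.56 TPM in siDDX5 replicates 1 to 3. Its groups did not overlap, and it made up 2.73% of the GNAS level in control and 0.387% in siDDX5 cells. GNAI1 had an adjusted usage p of 0.915.

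The genes whose level followed that of GNAI2 most closely over the 6 libraries were EPHB2, GNB1 and RNF31, with Pearson correlations of log2 CPM of 0.998, 0.996 and 0.996 among 10988 genes compared. GNB1 encodes the G protein beta subunit 1, EPHB2 an ephrin receptor and RNF31 a ubiquitin ligase. Of the other alpha genes, GNAQ was the most alike (0.913, rank 249), followed by GNA11 (0.684), and GNAI3 (-0.885) and GNA13 (-0.857) were the least alike. These values describe 6 points that share the difference between the groups, and they carry no test.

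Beta and gamma subunits, which pair with every alpha subunit, were mixed. Of 17 genes, 15 were tested and 0 called without the block; with it GNB1 was called lower and GNG10 higher, and the median log2 fold change of the list was 0.03. GNB1 had 437.5, 372.9 and 370.2 CPM in control and 262.1, 272.8 and 238.0 CPM in siDDX5 replicates 1 to 3, with no overlap (log2 fold change -0.61, SE 0.11, edgeR adjusted p = 0.0719, or 0.0152 with the block). GNG10 had 111.4, 110.4 and 113.8 CPM in control and 138.5, 169.0 and 162.1 CPM in siDDX5 replicates 1 to 3 (log2 fold change 0.48, SE 0.11, edgeR adjusted p = 0.121, or 0.0326 with the block). The annotated readthrough gene DNAJC25-GNG10 overlaps it on the same strand and had 11.09 to 14.46 CPM, so the GNG10 value is uncertain to that extent. GNG5, the gamma subunit next to GNG10 in mean TPM, had a log2 fold change of 0.26 and was not called (edgeR adjusted p = 0.617).

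Proteins that act on the alpha subunit itself were not called. RGS proteins, which speed GTP hydrolysis, had 12 of 21 genes tested and a median log2 fold change of 0.07. An unadjusted p under 0.05 was reached by 2 of them, beside 11.3% of all genes, or 3 with the block, beside 20.4%. None was called, with 0.38 for RGS3 (edgeR adjusted p = 0.403) and 0.00 for RGS12. The 21 genes summed to 118.6 to 138.2 TPM in control and 147.8 to 164.7 TPM in siDDX5 libraries. That sum was not tested, and the groups overlapped for each tested RGS gene. Chaperones, exchange factors and dissociation inhibitors of alpha subunits had 11 of 12 tested, a median of -0.01 and 0 genes at an unadjusted p under 0.05. Their most abundant members were NUCB2 (log2 fold change -0.01) and CCDC88A, an exchange factor for Gi that is also called GIV (-0.09).

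Downstream of Gi and Gs, adenylyl cyclases and subunits of protein kinase A had 12 of 16 genes tested, a median of -0.15 and 0 called without the block. With the block, the catalytic subunits PRKACA and PRKACB were called in opposite directions. PRKACA had 141.6, 133.3 and 120.4 CPM in control and 109.6, 97.3 and 96.0 CPM in siDDX5 replicates 1 to 3 (log2 fold change -0.38, SE 0.11, edgeR adjusted p = 0.235, or 0.0486 with the block). PRKACB had 86.0, 85.9 and 79.7 CPM in control and 112.4, 116.0 and 99.8 CPM in siDDX5 replicates 1 to 3 (log2 fold change 0.38, SE 0.10, edgeR adjusted p = 0.215, or 0.0475 with the block). Neither gene overlapped between groups. PRKAR1A, the most abundant regulatory subunit, had a log2 fold change of 0.04.

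Gq/11 effectors, such as phospholipase C beta isoforms, had 12 of 13 genes tested, a median of -0.17 and 0 called with or without the block. The exchange factors TRIO (log2 fold change -0.17) and ARHGEF25 (-0.18) were the most abundant of them. G12/13 effectors had 9 of 9 tested, a median of -0.06 and 0 called without the block. ARHGEF11, a RhoA exchange factor that binds G12 and G13, had 51.5, 49.1 and 49.6 CPM in control and 42.2, 31.6 and 32.4 CPM in siDDX5 replicates 1 to 3 and was called lower with the block (log2 fold change -0.50, SE 0.13, edgeR adjusted p = 0.202, or 0.0405 with the block). RHOA itself had 491.7, 412.3 and 463.3 CPM in control and 320.8, 386.9 and 345.0 CPM in siDDX5 replicates 1 to 3, with no overlap, and was not called (log2 fold change -0.38, SE 0.12, edgeR adjusted p = 0.263, or 0.118 with the block). RHOC had a log2 fold change of 0.06.

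Receptor kinases and arrestins, which end signalling at the receptor, had 9 of 11 genes tested and a median of -0.12. ARRB1, beta-arrestin 1, had 248.8, 229.1 and 177.1 CPM in control and 156.3, 140.6 and 96.7 CPM in siDDX5 replicates 1 to 3, with no overlap, and was called lower with the block (log2 fold change -0.73, SE 0.19, edgeR adjusted p = 0.185, or 0.00729 with the block). GRK2 had a log2 fold change of -0.13. Receptors that couple to Gi and Go had 19 of 39 genes tested, a median of 0.09, and 0 called with or without the block, and 6 of the 39 were listed at 0 in all libraries. The most abundant were the adenosine receptor ADORA1 (log2 fold change 0.34, edgeR adjusted p = 0.562) and the thrombin receptor F2R (0.09).

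Over these 9 lists of 144 genes, the 6 others of the alpha family included, 100 genes were tested. None was called without the block, while 15 of the 100 had an unadjusted p under 0.05, beside 11.3% of all genes. DESeq2 called 5, with 327 calls among all genes, and 6 (2 higher, 4 lower) were called with the block, beside 2.48% of all genes. The groups did not overlap in 16 of the 100, beside 18.0% of all genes, and the median log2 fold change was -0.03.

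**Figure D5:**
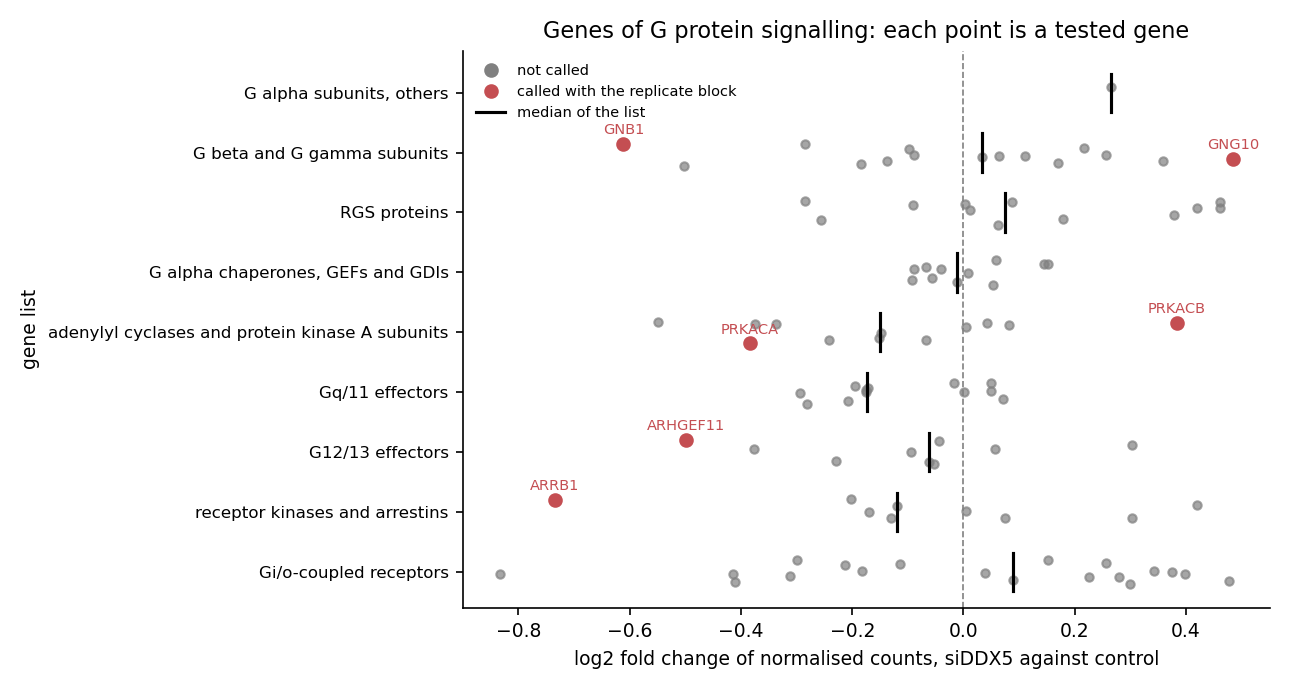
Log2 fold change of each of the 100 tested genes in the 9 lists, siDDX5 against control, with the median of each list as a bar and the 6 genes called with the replicate block in red. The list medians lie between -0.17 and 0.09, apart from the single tested gene of the other G alpha subunits at 0.26.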

How the data were processed

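Messenger RNA of 6 Rh30 libraries was measured, 3 control and 3 siDDX5, grouped by sample title. Per the labels, a stranded TruSeq mRNA kit was used. The submitters' processing notes name bcl2fastq 2.20, FastQC 0.11.8, cutadapt 1.11, kallisto 0.46.0 and the build GRCh38. The kallisto options, its use of strand and the transcript set are not given in the sources used here. Per the file headers, each deposited table holds an estimated count (not normalised, not always whole), a TPM value scaled by the authors' quantifier, and a length for each of 188753 transcripts.

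Transcripts were joined to GENCODE release 29 by identifier (169797) or, on haplotype and patch copies, by symbol (15315), and 3641 were left out. All 151 member transcripts joined by identifier, 143 of them with the same version and length. Estimated counts were summed per gene, rounded to whole numbers, filtered with filterByExpr, scaled with TMM and tested under R 4.3.3 with edgeR 4.0.16 (glmQLFTest). The model held only the group, and p-values were adjusted over all genes by the Benjamini-Hochberg method, with calls under 0.05. Transcripts were tested likewise, and usage with diffSpliceDGE. CPM values are TMM-normalised. SD is between libraries, and no error covers the division of reads among transcripts. A floor of 3 counts was 0.115 to 0.165 CPM.

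The deviations of same-numbered libraries from their group means correlated at 0.206, 0.267 and 0.564 over 15204 genes. Libraries with unlike numbers reached at most 0.0816. With 3 libraries per group, the deviations cancel out within a group, so higher values for some pairs force lower values for others. The labels do not say that equal numbers mark a shared batch or a pair. The replicate block is therefore an alternative that rests on these correlations, and it is given beside the results it changes. The 10 members, the lists, the 7-base word and the tests were chosen with earlier results of these data known. Named were the members, DDX5, the other alpha genes by level, up to 4 called genes and the 2 most abundant of each list, the 3 genes most like GNAI2 among those with at least 5 CPM, and transcripts with at least 10% of a member's TPM. Epithelial and endothelial markers were low: they summed to 1.38 to 2.50 and 4.55 to 7.27 TPM in all libraries, and fibroblast markers to 23.8 to 42.7 TPM, mostly COL3A1.

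Alternatives were DESeq2 1.42.0 and its size factors, no filter beyond 1 count, a mean of at least 50 counts, length-scaled TPM, limma-trend (limma 3.58.1) on log2(TPM + 1) and log2(TPM + 0.1), the replicate block, the primary annotation alone, and leaving out each library. On simulated counts with 200 genes changed by 1 on the log2 scale, edgeR recovered 196 with 6 false calls among 15234 genes, and DESeq2 194 with 15. The usage test recovered 194 of 200 with 30 false calls among 10680 genes. With replicate effects planted, edgeR recovered 131 without and 159 with the block among 15284 genes. The gene simulations used a fixed dispersion and changed only well-counted genes. They did not measure the power for differences as small as those of the 9 members other than GNAI2.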

Additional observations from a re-analysis of the deposited data

How the results depend on the processing

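No member other than GNAI2 was called at gene level under any of the 15 alternatives, and none of their transcripts under any of 13. Of 135 single values of these 9 genes, 130 kept their direction. The exceptions were GNAO1, which ranged from -0.33 to 0.31 over the left-out libraries (0.31 without control replicate 1), and GNAS, which ranged from -0.043 to 0.11 over them (-0.023 without control replicate 2, -0.043 without siDDX5 replicate 2) and was -0.020 in each limma-trend fit. The replicate block (pairing by number) gave 377 called genes against 26 and 6 list genes against 0, and it changed no call of a member. Other counts of called genes were 327 with DESeq2, 2 with length-scaled TPM counts, 1 with each limma-trend fit, 129 without the filter and 0 to 16 when a library was left out. The 0 came without control replicate 1 (1242 genes at an unadjusted p under 0.05) and without siDDX5 replicate 1 (2036). List genes called were 5 with DESeq2 and 2 without the filter. Transcripts called were 807 with DESeq2, 2 with limma-trend at a pseudocount of 0.1 and 9 at 1, against 0. Genes called for usage were 171, then 40 at a mean of at least 50 counts, 395 without the filter, 223 to 443 when a library was left out, and 0 to 1 among the members. The causes were not tested.

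With protein-coding transcripts only, the percent of the summed TPM of the 10 genes in control and siDDX5 cells was 0.365 and 0.188 for GNAI1, 12.3 and 5.38 for GNAI2, 3.39 and 4.24 for GNAI3, 42.3 and 45.8 for GNAS, 7.27 and 6.29 for GNAQ, 8.02 and 7.07 for GNA11, 15.05 and 17.5 for GNA13, and 10.2 in siDDX5 cells for GNA12. Of the GNAS level in control, 46.8% came from protein-coding transcripts. The siDDX5 libraries were shallower throughout, and GNAI1, GNAO1 and GNAZ, with the fewest counts, had the widest intervals.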
